A study of Mus musculus with 12 samples.

Results

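Expression of 3 astrocyte genes, Gfap, Agt and Slc1a3, was compared across the brains of 12 mice, 5 wild-type (Wt) and 7 transgenic (Tg). The 3 genes were picked as named astrocyte genes, with earlier results of these data known. They are 3 of the 15928 genes in the count table. The study itself had already listed Gfap and Agt, but not Slc1a3, as upregulated in Tg from these same mice. The table gives no gene names, so a gene was named only where its mean normalized count matched a single entry in the study's own DESeq2 output to a relative difference under 1e-09, and 1349 genes (8.47%) were named in this way. That output lists the genes its own test ranked near the top, so a gene with a name was already more likely to differ between the groups: 81.3% of the named genes had an unadjusted edgeR p under 0.05, against 7.19% of all genes (4.46% higher and 2.73% lower in Tg).

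Tg mice were Tg2576 animals, in which a prion protein promoter drives human APP bearing the Swedish double mutation, and Wt mice carried no transgene. Mice of both groups were 11 months old by their labels (the study's methods give a range that begins there and extends to older mice), came from the same supplier, had no treatment named, and a strain background beyond the line name was not given in the labels. Of the Wt mice, 12, 79 and 80 were labelled female and 41 and 95 male. Of the Tg mice, 32, 91, 92 and 93 were labelled female and 67, 68 and 69 male. Each library was made from 1 piece of brain that held dorsal hippocampus and cortex together.

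Astrocytes are glial cells that fill the space between neurons, take up transmitter from synapses, and touch blood vessels with their end-feet. Gfap encodes glial fibrillary acidic protein, an intermediate filament of the astrocyte skeleton that is abundant in white matter, hippocampus and the glial border of the brain, and sparse in resting cortex. It is the usual marker of reactive astrocytes, the state that astrocytes enter near injury and amyloid plaques. Agt encodes angiotensinogen, the secreted precursor of the angiotensin peptides. In the brain it is made mainly by astrocytes, with more in thalamus, hypothalamus and brainstem than in cortex. Slc1a3 encodes GLAST (EAAT1), a transporter by which astrocytes clear glutamate, and is expressed by astrocytes across the brain whether reactive or not.

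The 3 genes lie on different chromosomes, all on the minus strand of GRCm38 (mm10), and all are protein coding. Gfap spans chr11:102887336-102900912, Agt spans chr8:124556534-124569706, and Slc1a3 spans chr15:8634124-8710764. No other annotated gene shared exon bases with any of them. The starts of the 3 genes are shown because Gfap is a textbook target of STAT3, the factor that cytokines switch on in reactive astrocytes, and angiotensinogen is a known acute-phase gene of the liver. Each sequence below runs from 250 bases before the RefSeq start site to 20 bases after it (RefSeq, GRCm38.p6), with matches to the STAT letters TTCNNNGAA in capitals.
Gfap, chr11:102897181-102897450, minus strand: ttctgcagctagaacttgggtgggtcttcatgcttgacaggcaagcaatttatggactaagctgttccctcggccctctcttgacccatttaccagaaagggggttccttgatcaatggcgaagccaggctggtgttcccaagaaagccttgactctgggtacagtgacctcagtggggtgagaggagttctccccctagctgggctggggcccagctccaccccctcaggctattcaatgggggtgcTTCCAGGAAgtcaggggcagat
Agt, chr8:124569687-124569956, minus strand: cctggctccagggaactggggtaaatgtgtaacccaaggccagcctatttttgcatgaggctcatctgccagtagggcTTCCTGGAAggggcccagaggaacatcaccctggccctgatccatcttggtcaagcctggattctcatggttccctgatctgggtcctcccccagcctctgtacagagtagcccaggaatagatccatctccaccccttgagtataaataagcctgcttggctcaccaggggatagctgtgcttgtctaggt
Slc1a3, chr15:8710788-8711057, minus strand: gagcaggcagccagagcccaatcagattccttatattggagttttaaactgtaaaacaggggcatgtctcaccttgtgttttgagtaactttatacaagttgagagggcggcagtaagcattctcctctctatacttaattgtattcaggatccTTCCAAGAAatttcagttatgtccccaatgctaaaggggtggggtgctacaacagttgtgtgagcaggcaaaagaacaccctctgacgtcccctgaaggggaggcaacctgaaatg

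Each window held 1 match to TTCNNNGAA, a palindrome that reads the same on both strands. In Gfap and Agt the match also fitted the stricter letters TTCCNGGAA, and in Slc1a3 it did not. The looser letters occurred in 8.3% of 32851 promoter windows of 300 bases, and the stricter letters, which are contained in the looser ones, in 1.15%. The Agt match lay 172 to 164 bases before the start site and the Slc1a3 match 96 to 88 bases before it. The Gfap match spanned the RefSeq start itself, from base -2 to base 7. GENCODE also places a coding Gfap transcript farther downstream, and the match ended 63 bases before that start. It places the coding Slc1a3 transcripts farther downstream as well, and the Slc1a3 match ended 131 and 486 bases before their starts. The AP-1 letters TGANTCA, searched on both strands, were in none of these 3 windows and in 7.81% of all. A match is a string of letters only, and binding was not measured. Bases farther than 250 before the start were not searched. Whether any of these matches is a site through which STAT3 acts was not tested, nor was a link to the expression differences.

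Total counts were 15768135 to 20996174 per library. App, the gene of the transgene, was higher in all 7 Tg mice (2991 to 5727 CPM, counts divided by TMM-adjusted library size) than in the 5 Wt mice (1214 to 1496 CPM), with a log2 fold change of 1.67 (SE 0.15, edgeR adjusted p = 0.000755). Xist, which is transcribed from the inactive X of females, was at 198.9 CPM in Wt mouse 41, which is labelled male, while the other 4 mice labelled male had 0 to 0.0563 CPM and those labelled female 149.5 to 233.4 CPM. The values of the 3 genes are therefore also given without mouse 41. In the 4 libraries of batch 2 both Wt mice were female and both Tg mice male, and the effects of genotype and labelled sex cannot be told apart there. Pieces differed in RNA of choroid plexus markers. The summed CPM of 16 such markers, all named, ranged from 104.9 to 598.8 in Wt and from 101 to 2371 in Tg. The defining markers Slc4a5 and Kcne2 were at 0 in at least 1 Tg mouse. The tissue that each piece held was not measured. In bulk tissue, fewer cells of a type and less RNA per cell cannot be told apart.

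Gfap was higher in Tg than in Wt mice by a factor of about 2. It was at 164.1, 49.63, 137.5, 207.6 and 132.1 CPM in Wt mice 12, 41, 79, 80 and 95. In the 7 Tg mice it ranged from 184.2 to 329.4 CPM with a median of 260.2 CPM. The Tg mice were all above 4 of the Wt mice, and 6 of them were above all 5. Only Tg mouse 67, the lowest Tg value, came below Wt mouse 80, the highest Wt value. Wt mouse 41 stood lowest of all 12 mice.

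Mean Gfap was 138.2 ± 57.8 CPM (SD, n = 5) in Wt and 257.7 ± 46.7 CPM (SD, n = 7) in Tg. In the edgeR model with sex and batch the log2 fold change was 1.01 (SE 0.21, 95% interval 0.56 to 1.47), a 2.02-fold higher level (1.47 to 2.76). Its unadjusted edgeR p of 0.00033 ranked 9 of 15928 genes, but the Benjamini-Hochberg adjusted p was 0.574. Gfap was thus not called under 0.1, the threshold in the study's supplement (its main text states a stricter one). Under 0.1 edgeR called 1 gene, App, or 0.00628% of all genes. DESeq2 gave the same size of difference (1.0, SE 0.20) with an adjusted p of 0.00206 and called Gfap among 56 genes (0.352%), 51 of them higher in Tg (0.32%). For Gfap alone, an exact two-sided permutation test of mean log2 CPM over every split of the 12 animals gave a difference of 1.02 and p = 0.00253, where 0.00126 is the smallest p possible. This p was not adjusted over all genes. The study had already listed Gfap and Agt as upregulated from the same mice. Permutation p-values for these genes and for their ratios to Slc1a3 are therefore not independent support.

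Gfap was also compared within each library batch. In batch 1, with 3 Wt and 5 Tg mice, the log2 difference was 1.25 (exact permutation p = 0.0179, the smallest that 56 splits allow), and the edgeR log2 fold change with sex in the model was 0.84 (SE 0.30). In batch 2 the Wt mice had 137.5 and 207.6 CPM and the Tg mice 285.6 and 279.6 CPM, which do not overlap, as is the case for 41.9% of all genes in these 4 mice (22% with Tg higher). Without Wt mouse 41 the edgeR log2 fold change was 0.78 (SE 0.15), and the exact permutation p was 0.00606.

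**Figure D1:**
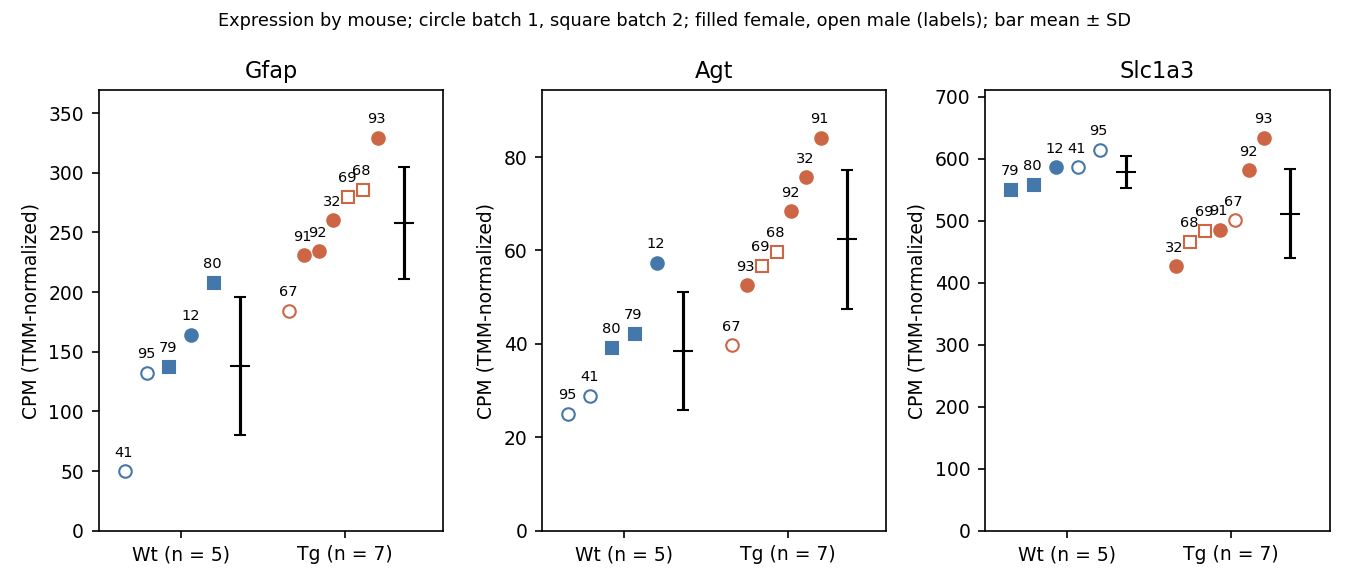
CPM of Gfap, Agt and Slc1a3 (vertical axes, TMM-normalized) in each of 5 Wt and 7 Tg mice, numbered by mouse; circles are batch 1, squares batch 2, filled symbols labelled female, open symbols labelled male, and bars the mean ± SD. For Gfap 6 of 7 Tg mice and for Agt 4 of 7 lie above every Wt mouse, while for Slc1a3 5 of 7 lie below every Wt mouse.

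Agt was also higher in Tg mice. The Wt values were 57.35, 28.92, 42.11, 39.13 and 24.99 CPM in mice 12, 41, 79, 80 and 95. Tg values ran from 39.67 to 84.15 CPM with a median of 59.65 CPM. Wt mouse 12 reached into the Tg range, above 93, 69 and 67, and Wt mouse 79 was also above Tg mouse 67. The other 4 Tg mice, all but 1 of them female, were above every Wt mouse.

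Mean Agt was 38.5 ± 12.7 CPM (SD, n = 5) in Wt and 62.4 ± 14.9 CPM (SD, n = 7) in Tg. The edgeR log2 fold change was 0.75 (SE 0.15, 95% interval 0.42 to 1.08), or 1.68-fold. Agt ranked 8 by p in the edgeR quasi-likelihood test fitted across all genes (adjusted p = 0.501) and was not called. It was called by DESeq2 (0.74, adjusted p = 0.00474). The exact two-sided permutation test gave a difference of 0.72 and p = 0.0189. Within batch 1 alone the difference in mean log2 CPM was 0.84 with an exact permutation p of 0.0714, which does not pass 0.05, and the edgeR log2 fold change was 0.41. In batch 2 the Wt mice had 42.11 and 39.13 CPM and the Tg mice 59.65 and 56.7 CPM. Without Wt mouse 41 the edgeR log2 fold change was 0.75 (SE 0.18), close to that of Gfap without it, and the exact permutation p was 0.0394.

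Slc1a3 showed no higher level in Tg mice. The Wt mice lay close together, at 586, 586.2, 549.8, 558.2 and 614.1 CPM in mice 12, 41, 79, 80 and 95. The Tg mice ran from 426.4 to 633.8 CPM with a median of 485 CPM, so 5 of 7 were below every Wt mouse. Tg mouse 92 was inside the Wt range and Tg mouse 93 above it.

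Mean Slc1a3 was 578.8 ± 25.6 CPM (SD, n = 5) in Wt and 510.9 ± 71.7 CPM (SD, n = 7) in Tg. Its edgeR log2 fold change was -0.19 (SE 0.10, 95% interval -0.41 to 0.02), or 0.874-fold, with an edgeR adjusted p of 0.726. The DESeq2 adjusted p was 0.651. The exact two-sided permutation p was 0.0619 over all mice, 0.039 without Tg mouse 92 and 0.0108 without Tg mouse 93, with differences of -0.19, -0.22 and -0.24. Leaving out Wt mouse 41 gave a difference of -0.19 (exact permutation p = 0.106). With library totals in place of TMM the exact permutation p was 0.0492. The call thus turned on single Tg mice and on the scaling, and the sign did not. Slc1a3 could also be named only through the study's own ranking of genes in these same mice. Its permutation p-values are therefore not independent support either.

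None of the 3 genes separated the 2 groups fully, which 53 of 15928 genes (0.333%) did, 35 of them higher in Tg (0.22%). Across the 3 genes the highest and lowest Tg mice were not the same animals. Tg mouse 93 was highest for Gfap and for Slc1a3 but second lowest for Agt, and Tg mouse 91 was highest for Agt. Tg mouse 67 was lowest for Gfap and Agt. Within the 7 Tg mice Pearson's r of log2 CPM was 0.195 for Gfap and Agt, 0.239 for Gfap and Slc1a3, and -0.288 for Agt and Slc1a3, given as descriptions of libraries that share normalization.

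Per kilobase of exon, Slc1a3 was the most abundant of the 3 transcripts in Wt mice at 67.8 ± 3.0 RPKM (SD, n = 5). Gfap followed at 32.8 ± 13.7 RPKM and Agt at 20.4 ± 6.71 RPKM, and the ranges of these 2 overlapped. In Tg mice Gfap (61.1 ± 11.1 RPKM, SD, n = 7) and Slc1a3 (59.8 ± 8.39 RPKM) overlapped, and Agt (33.0 ± 7.90 RPKM) overlapped Gfap at its upper end. Gfap exceeded Slc1a3 per length in 0 of 5 Wt and in 4 of 7 Tg mice. These levels use the exon bases annotated for each gene, 4218 for Gfap, 1891 for Agt and 8537 for Slc1a3, and not the isoform that was expressed.

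Ratios within a library do not depend on its normalization. In Wt mice Gfap counts were 0.28, 0.0847, 0.25, 0.372 and 0.215 of the Slc1a3 counts in mice 12, 41, 79, 80 and 95. In Tg mice the same ratio ran from 0.368 to 0.614, and 6 of 7 Tg mice were above every Wt mouse. The mean log2 ratio was -2.21 ± 0.81 (SD, n = 5) in Wt and -1.0 ± 0.29 (SD, n = 7) in Tg, a difference of 1.21 or 2.32-fold, with an exact two-sided permutation p of 0.00253 (0.00758 adjusted over the 3 ratios). Without Wt mouse 41 the difference was 0.87, with an adjusted exact permutation p of 0.0182.

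The ratio of Agt to Slc1a3 was higher in Tg as well. It ranged from 0.0407 to 0.0979 in Wt and from 0.0793 to 0.177 in Tg, with 5 of 7 Tg mice above every Wt mouse. The log2 difference was 0.91, or 1.88-fold (exact permutation p = 0.0101, adjusted 0.0152), and 0.82 without Wt mouse 41 (adjusted 0.0409). In batch 1 alone these differences were 1.44 for Gfap and 1.03 for Agt, with adjusted exact permutation p-values of 0.0536 and 0.134. The ratio of Gfap to Agt differed by 0.30 on the log2 scale between the groups (exact permutation p = 0.364) and by 0.05 without Wt mouse 41, so a difference between the 2 genes in their response was not resolved.

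**Figure D2:**
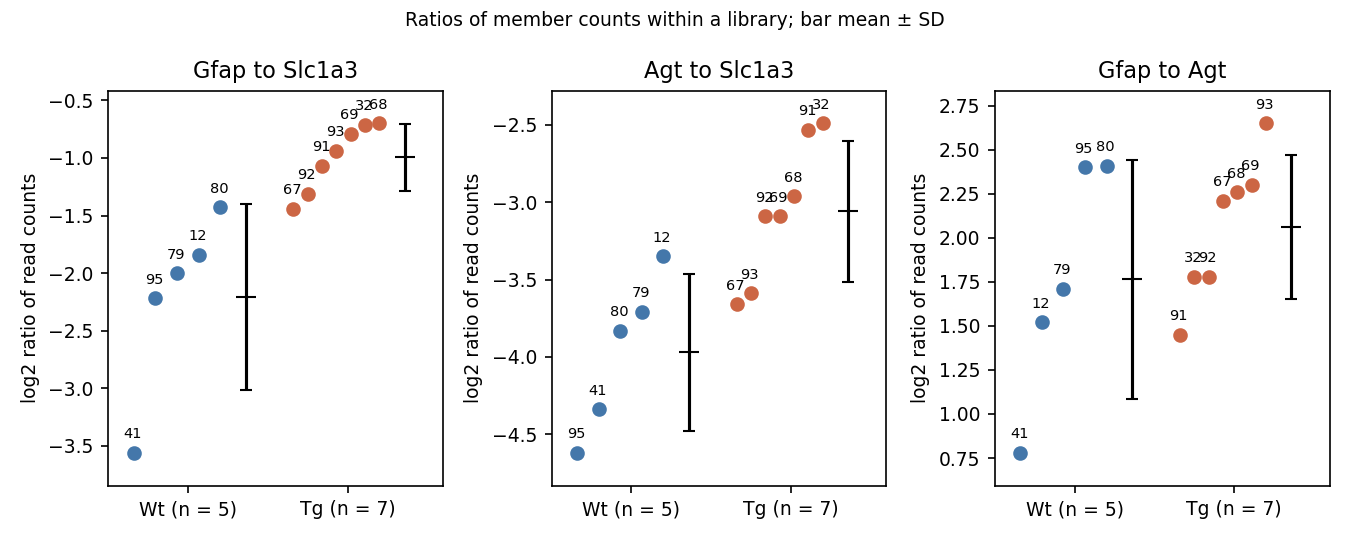
Log2 ratio of read counts within each library (vertical axes) for the 3 pairs of genes in 5 Wt and 7 Tg mice, numbered by mouse, with bars for mean ± SD. The Gfap to Slc1a3 ratio is centred at -2.21 in Wt and -1.0 in Tg, and Wt mouse 41 lies lowest at -3.56; the Gfap to Agt ratio overlaps widely.

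The other astrocyte core genes that could be named were also split in direction. Of 42 astrocyte core genes, 12 could be named, 5 with a higher and 7 with a lower fitted level in Tg, and their median log2 fold change was -0.21. All named genes had a median of 0.32 and all 15928 tested genes a median of 0.00 in size. The higher ones were Gfap, Agt, Id3 (0.39), Ntsr2 (0.31) and S100b (0.31), which encode a filament, a peptide precursor, a transcriptional inhibitor, a neurotensin receptor and a calcium-binding protein. The lower ones were Slc1a3, Slc1a2 (-0.32), Chrdl1 (-0.42), Mfge8 (-0.29), Luzp2 (-0.26), Ncan (-0.25) and Gpc5 (-0.22). Chrdl1 encodes a secreted inhibitor of bone morphogenetic proteins, Ncan a matrix proteoglycan and Gpc5 a cell surface proteoglycan.

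Unadjusted edgeR p-values were under 0.05 for 11 of these 12 genes, all but Slc1a3, where 81.3% of all named genes are under 0.05. After adjustment over all genes edgeR called none of the 12. DESeq2 called 2, Gfap and Agt, where it called 56 of all 1349 named genes. Without Wt mouse 41 the directions were still 5 higher and 7 lower, and 5 genes had an unadjusted p under 0.05.

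Slc1a2, which encodes the main glutamate transporter of forebrain astrocytes (GLT-1), had the same sign as Slc1a3. It was at 2076, 2419, 1929, 2666 and 2079 CPM in Wt mice 12, 41, 79, 80 and 95, and at 1609 to 2067 CPM (median 1710) in Tg. Only Tg mice 92 and 93 reached the Wt range, the same 2 animals as for Slc1a3. The edgeR log2 fold change was -0.32 (SE 0.11), with an adjusted p of 0.611. Within the 7 Tg mice Pearson's r of Slc1a2 and Slc1a3 was 0.841, and Spearman's rho 0.429.

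Of the 23 genes listed for glutamate transport and metabolism, 4 were named. Beside Slc1a2 and Slc1a3 these were the vesicular transporters of neurons, Slc17a6 (0.75, SE 0.28), which is typical of thalamus, and Slc17a7 (-0.26, SE 0.14), which is typical of cortex and hippocampus. None of the 4 was called by edgeR or DESeq2.

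Among 42 genes reported in reactive astrocytes, 11 were named and all 11 had a higher fitted level in Tg, with a median log2 fold change of 0.73. Of all 1349 named genes, 754 were higher, and genes of the list without a name were not examined. Unadjusted edgeR p-values were under 0.05 for 9 of them, and 49.4% of named genes were both under 0.05 and higher in Tg. Gfap was the only one called by DESeq2, which called 56 of all 1349 named genes. None of the 11 was called by edgeR. Without Wt mouse 41 all 11 were still higher, with a median of 0.47, and 4 had an unadjusted p under 0.05. With the choroid plexus score in the model all 11 were higher with a median of 0.42, and with the microglia score 10 were higher and 1, Vim, lower, with a median of 0.37; in each of these fits 2 had an unadjusted p under 0.05. Serpina3n, a secreted protease inhibitor, had 5.50 to 13.96 CPM in Wt and 9.80 to 20.13 CPM in Tg (0.61, SE 0.21). C4b, a complement component, was fitted at 0.80 (SE 0.34), and at 0.47 without Wt mouse 41. Several of these genes are also made by microglia (Cd14), oligodendrocytes (Gsn, Cd9) or vessels and meninges (Serping1, Fbln5).

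Vim and Nefh were the other intermediate filament genes with a name, 3 of 14 listed. Vim encodes vimentin, which forms filaments together with Gfap in astrocytes and is also made by ependyma and vessels. It had 16.71 to 34.19 CPM in Wt and 22.01 to 41.65 CPM in Tg, with a log2 fold change of 0.50 (SE 0.20). Nefh, a heavy neurofilament of long axons, was fitted at 0.50 (SE 0.19). Neither was called by edgeR or DESeq2. With the choroid plexus score in the model the fits were 0.27 for Vim and 0.13 for Nefh, and with the microglia score that of Vim turned to -0.22.

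**Figure D3:**
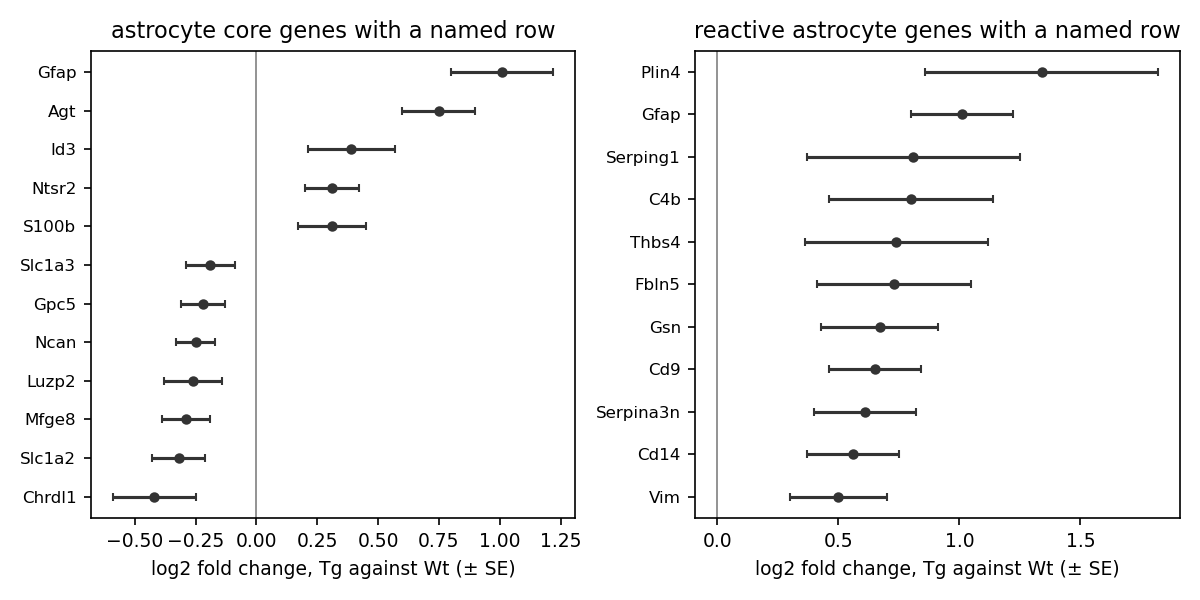
Log2 fold change, Tg against Wt (horizontal axes), with its SE from edgeR for the 12 named astrocyte core genes and the 11 named reactive astrocyte genes; the vertical line marks no difference. Core genes lie on both sides, from Chrdl1 at -0.42 to Gfap at 1.01, and all 11 reactive genes lie to the right.

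Of 19 listed genes of the renin-angiotensin system only Agt and Ace were named. Ace encodes angiotensin-converting enzyme, which cuts the peptide downstream of Agt and in brain is abundant in choroid plexus and striatal neurons. Its levels were 42.42, 21.98, 32.3, 20.28 and 21.55 CPM in Wt mice 12, 41, 79, 80 and 95, and 25.6 to 70.62 CPM (median 55.86) in Tg. Tg mice 67 and 93 were within the Wt range and the other 5 above it. The edgeR log2 fold change was 0.89 (SE 0.25, adjusted p = 0.61), and DESeq2 called Ace (adjusted p = 0.0782). With the choroid plexus score in the model it was 0.25.

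Markers of other cells were also fitted at different levels in the groups, but they could be named only through the study's own ranking of Tg against Wt. Of all 1349 named genes, 754 were fitted higher in Tg. None of the markers below was called by edgeR. DESeq2 called 1 choroid plexus, 1 oligodendrocyte, 1 microglia and 2 ependyma markers, and none of the others. All 56 genes that DESeq2 called (0.352% of all genes) were among the 1349 with a name. The 16 choroid plexus markers were all fitted higher in Tg (median 2.16). So were the 13 named of 15 oligodendrocyte markers (0.95), the 4 named of 18 microglia markers (0.36) and the 3 named of 8 ependyma markers (0.79). Of the 5 named of 11 thalamus and habenula markers, 4 were higher. Of the 4 named of 12 neuron markers 3 were lower (median -0.25), among them Grin2b (-0.34) and Camk2a (-0.25), with summed CPM of 4040 to 6216 in Wt and 3449 to 4720 in Tg. The 1 named of 8 hippocampus markers, Prox1, was fitted at 0.38. Summed CPM ranged over 1132 to 3748 in Wt and 1546 to 6263 in Tg for oligodendrocytes, over 58.8 to 79.9 and 76.8 to 103.2 for microglia, and over 103.6 to 176.6 and 102.2 to 354.6 for thalamus and habenula. No marker of endothelium or striatum was named. The 12 astrocyte core genes summed to 3362 to 4080 CPM in Wt and 3073 to 3741 CPM in Tg.

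Among the Tg mice, Agt was lowest in the 2 with the least RNA of choroid plexus and oligodendrocyte markers. The Tg mice 67 and 93 had little choroid plexus RNA (101 and 101.4 CPM), and the other 5 had 1315 to 2371 CPM. Oligodendrocyte markers summed to 2051 and 1546 CPM in mice 67 and 93, and to 3514 to 6263 CPM in the other 5. The 2 kinds of RNA thus split the Tg mice in the same way. In mice 67 and 93 Agt was at its 2 lowest Tg values, 39.67 and 52.53 CPM, whereas Gfap was at its lowest and its highest Tg value, 184.2 and 329.4 CPM. With the mean log2 CPM of the choroid plexus markers added to the model, the log2 fold change was 1.01 (SE 0.25) for Gfap, 0.44 (SE 0.12) for Agt and -0.12 (SE 0.12) for Slc1a3. The oligodendrocyte score gave 0.98, 0.38 and -0.07, and the thalamus and habenula score 1.02, 0.56 and -0.09.

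For Gfap a smaller difference was fitted with the microglia markers Tyrobp, C1qa, C1qb and Lyz2. With their score in the model the log2 fold change was 0.55 (SE 0.32) for Gfap, 0.57 (SE 0.25) for Agt and -0.11 (SE 0.18) for Slc1a3. Wt mice 41 and 95, with the lowest microglia scores (3.29 and 3.46), also had the lowest Gfap. Of the 4 markers Lyz2 varied most over the 12 mice, from 0.87 to 3.69 log2 CPM, against 4.55 to 5.25 for C1qa. Lyz2 is also among the 3 named genes most like Gfap (Pearson's r = 0.896, and 0.720 without mice 41 and 95). The score thus holds a gene that follows Gfap, and a score without Lyz2 was not tested. The microglia and thalamus scores were added after the data had been seen. The scores differ between the groups themselves, and the part of tissue composition in the differences of the 3 genes was not tested beyond these fits.

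**Figure D4:**
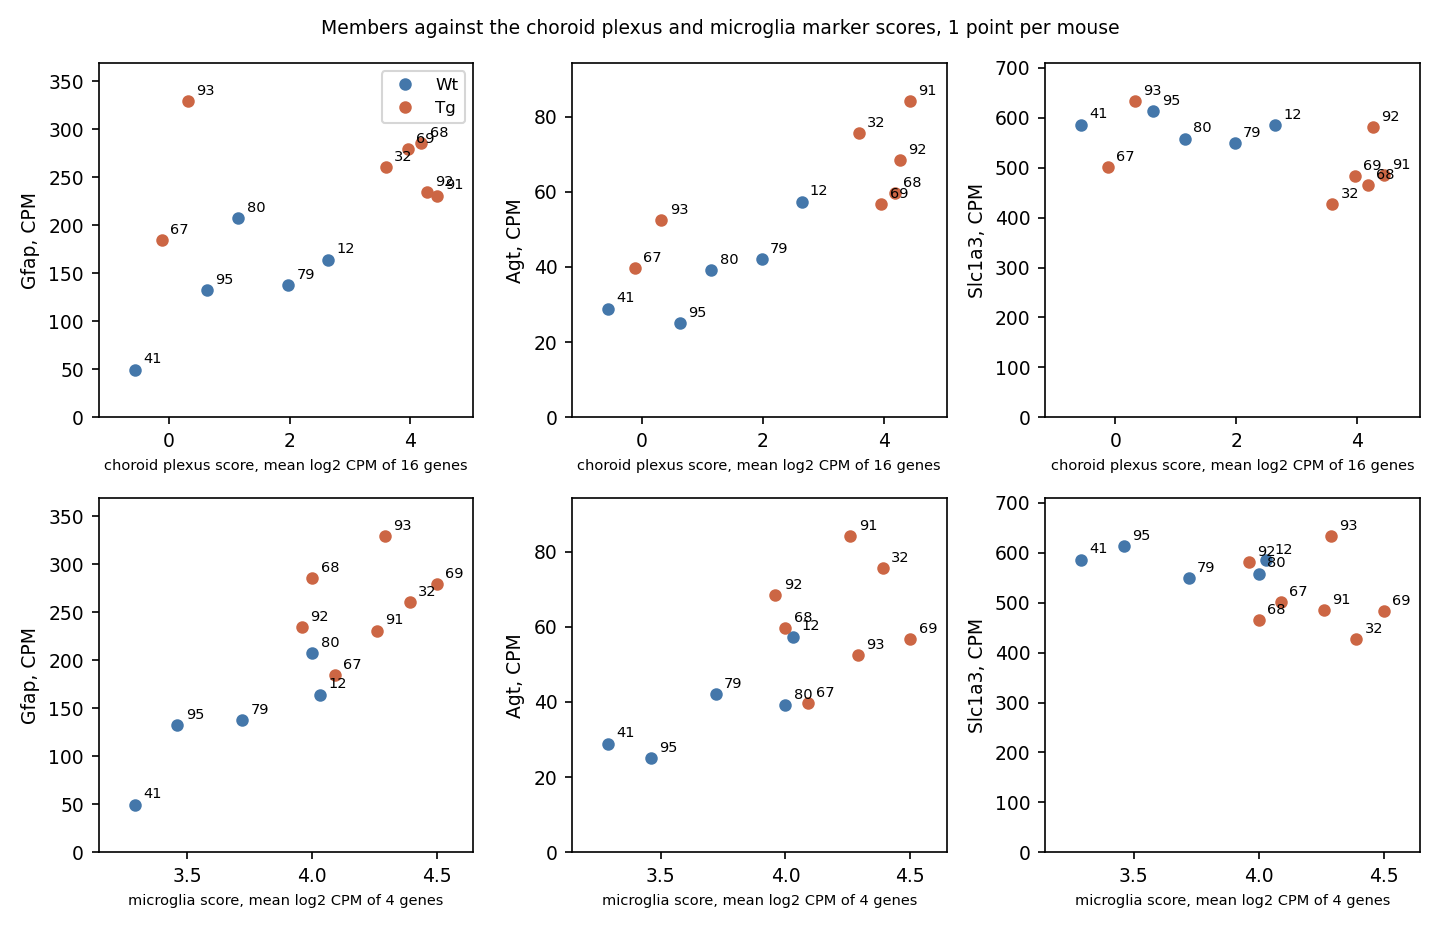
CPM of Gfap, Agt and Slc1a3 (vertical axes) against the choroid plexus score (upper row) and the microglia score (lower row), each the mean log2 CPM of the markers (horizontal axes), with 1 numbered point per mouse, Wt in blue and Tg in orange. Tg mice 67 and 93 have choroid plexus scores of -0.12 and 0.32, against 3.59 to 4.44 in the other 5 Tg mice.

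The sign of each fitted difference was kept in all settings tried. Over 14 other settings the log2 fold change ran from 0.55 to 1.02 for Gfap, from 0.38 to 0.75 for Agt and from -0.21 to -0.07 for Slc1a3. When each mouse was left out in turn it ran from 0.78 to 1.28, from 0.68 to 0.90 and from -0.26 to -0.16. DESeq2 was the only setting in which Gfap or Agt passed the adjusted threshold.

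**Figure D5:**
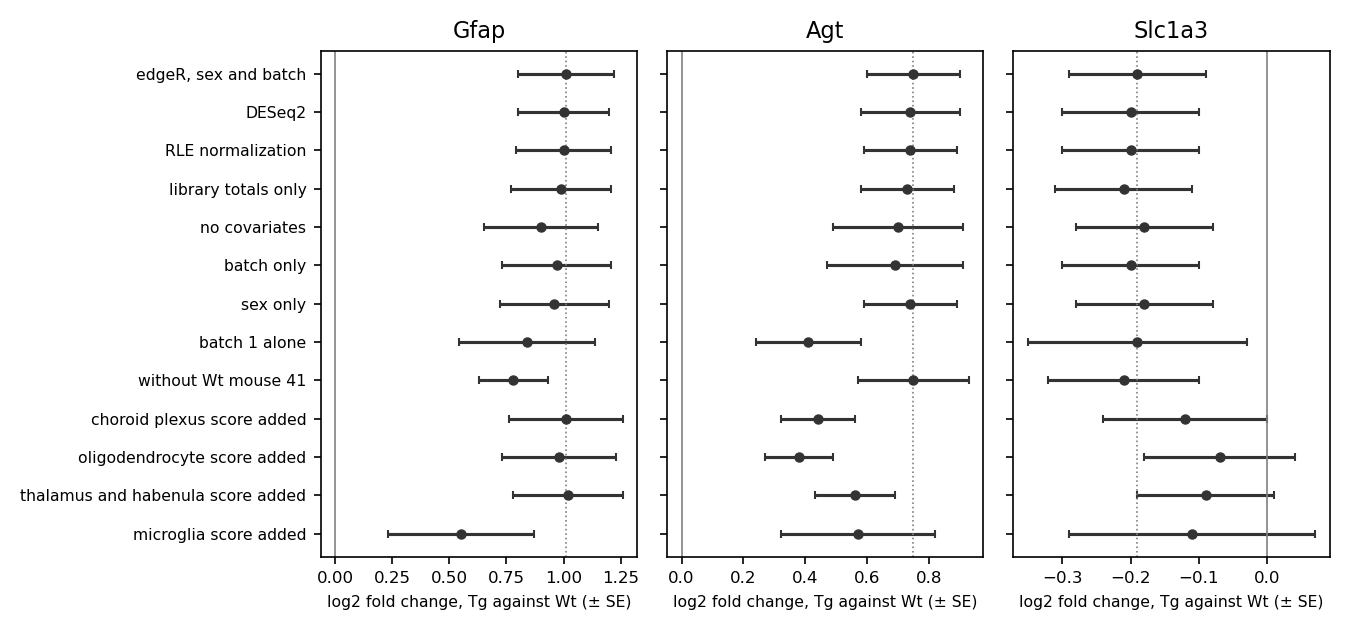
Log2 fold change, Tg against Wt, with its SE (horizontal axes) for Gfap, Agt and Slc1a3 in edgeR with sex and batch (top, dotted line) and in 12 other settings; the solid vertical line marks no difference, and the horizontal scales differ. Gfap is lowest with the microglia score (0.55), and Agt with the oligodendrocyte score (0.38).

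Sex and App level were examined within these few mice. The genotype by labelled sex term in edgeR, male minus female, was 0.36 (SE 0.58) for Gfap, 0.35 (SE 0.42) for Agt and -0.12 (SE 0.29) for Slc1a3, with an edgeR adjusted p of 0.992 for each and 0 genes past 0.1, so differences of these sizes were not detectable here. When Wt mouse 41 was left out the Gfap term turned to -0.19, and without Wt mouse 12 the Gfap and Agt terms turned to -0.21 and -0.78. The 7 Tg mice fell into 3 with 2991 to 3393 CPM of App (32, 91 and 92) and 4 with 5140 to 5727 CPM (67, 68, 69 and 93), sets too small for a correlation within either. Agt was at 75.64, 84.15 and 68.36 CPM in the 3 with less App and at 39.67 to 59.65 CPM in the other 4, and 6.25% of all genes did not overlap between these 2 sets of mice. Gfap (230.7 to 260.2 against 184.2 to 329.4 CPM) and Slc1a3 (426.4 to 581.3 against 465.4 to 633.8 CPM) overlapped. The 3 mice with less App were all female, in batch 1 and rich in choroid plexus RNA. Of the other 4, mouse 93 was also female and in batch 1 (Agt 52.53 CPM), and mice 68 and 69 were also rich in choroid plexus RNA (Agt 59.65 and 56.7 CPM), so it is the combination of these traits that cannot be told apart from the App level.

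The named genes whose levels over the 12 mice were most like each member differed from member to member. For Gfap they were Tgif1 (Pearson's r = 0.953), a transcriptional repressor, Ctsh (0.900), a lysosomal protease, and Lyz2 (0.896), the lysozyme of macrophages and microglia. These rested in part on Wt mice 41 and 95, without which r was 0.782, 0.779 and 0.720, and within the 7 Tg mice r was 0.393, 0.333 and 0.516.

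For Agt the 3 were Nqo1 (0.977), a quinone reductase, Spp1 (0.948), which encodes osteopontin, and Pcsk6 (0.945), a proprotein convertase. Within the 7 Tg mice r was still 0.915, 0.860 and 0.858. For Slc1a3 they were Il17rd (0.893), an inhibitor of growth factor signalling, Syt17 (0.892), a synaptotagmin family member, and Papl (0.882), with 0.917, 0.901 and 0.855 within the Tg mice. For Slc1a3 6 to 10 genes without a name had a higher r than these, and for Gfap and Agt there were 0. All are correlations over libraries that share genotype, batch and tissue composition, and they carry no test.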

How the data were processed

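Total RNA of 12 mice (5 Wt, 7 Tg) was depleted of ribosomal RNA and sequenced on an Ion Torrent S5XL by the authors, who aligned reads to mm10 with STAR and Bowtie2 (named without versions in the submitters' processing notes), removed genes with low counts and deposited raw counts of unique reads for 15928 genes. Strand use in counting was not given in the sources used here. A second deposited table gives each library's size, batch and the TMM factor, a scaling ratio from edgeR. Sex and age came from the labels. DNA methylation was not analysed here. The study's DESeq2 output gave gene names and means only; its fold changes and p-values were not used.

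The 12 size factors were solved so that mean normalized counts matched that output. Of 1684 genes with a mean, 1349 paired with 1 gene within 1e-09. The relative difference was 8e-11 for Gfap, 4.4e-12 for Agt and 1.2e-11 for Slc1a3, and the next nearest genes differed by 0.00092, 1.8e-05 and 0.0039.

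Counts were tested with edgeR 4.0.16 in R 4.3.3 (quasi-likelihood F-test, sex, batch and genotype, TMM, filterByExpr, which kept all 15928 genes), Benjamini-Hochberg adjusted over all genes and called under 0.1. DESeq2 1.42.0 was an alternative. The biological coefficient of variation was 0.201. Exact permutation tests used log2 CPM (prior count 2) in Python 3.11.15 with scipy 1.17.1, two-sided, at 0.05, and ratios had 0.5 added to counts. The steps were tested on simulated data. Exon lengths are from GENCODE M21. Named genes are the 3 members, App, Xist, genes of the lists that could be named, and the 3 most correlated named genes per member. The members and lists were chosen with earlier results of these data known. Counting error is small at these depths, and the spread between mice sets the precision.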

Additional observations from a re-analysis of the deposited data

How the results depend on the processing

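No paired analysis was possible because the groups share no replicate numbers (each number names 1 mouse). In edgeR the number of genes called, 1, was 56 with DESeq2, 2 with the choroid plexus, oligodendrocyte or thalamus and habenula score, 0 with the microglia score and in batch 1 alone, and 1 to 2 when mice were left out in turn (2 without Tg mouse 93). With DESeq2 the fold changes of Gfap (1.0) and Agt (0.74) passed the threshold. In exact permutation tests, Agt in batch 1 alone (0.84) and the ratios to Slc1a3 in batch 1 alone (1.44 for Gfap, 1.03 for Agt) no longer passed, with fewer mice. Slc1a3 passed with library totals only (-0.21, exact permutation p = 0.0492), and with mice left out in turn its difference ran from -0.24 to -0.15 (p = 0.0108 to 0.124). The genotype by sex term ran from -0.21 to 1.23 for Gfap and from -0.78 to 1.31 for Agt with mice left out, below 0 without Wt mouse 12 for both and without Wt mouse 41 for Gfap (-0.19), so its sign rests on single mice. The 7 Tg mice form 2 clusters of App level, so pooled correlations with App describe mainly the gap between them. Pearson's r was 0.283 for Gfap, -0.805 for Agt (exact permutation p = 0.026, 0.078 adjusted over the 3 genes) and 0.103 for Slc1a3. With 1 mouse left out at a time r ran from 0.13 to 0.84 for Gfap (0.84 without Tg mouse 67), from -0.90 to -0.71 for Agt, and from -0.18 to 0.40 for Slc1a3, below 0 without Tg mouse 32 (-0.13) or 93. Without the 2 mice farthest from the median App level r was 0.04, -0.68 and 0.51. Other causes of these shifts were not tested.

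Names exist for 8.47% of genes, so most astrocyte genes of the lists were not examined. Batch 2 is confounded with sex, and the label of 1 mouse goes against its Xist level. RLE normalization, library totals and the filter of more than 5 CPM in at least 5 mice moved no fold change of the 3 genes across 0. The threshold of 0.05 and the fit without a filter repeat the main fit and could not do so. The prior count enters only the log2 CPM of the permutation tests, where 0.5 gave the same differences.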
